A study of Homo sapiens with 10 samples.

Results

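Replication-dependent histone genes were followed in QGP-1 cells after knockdown of PIKFYVE or treatment with apilimod or Torin-1. The members are the genes whose symbol in both expression tables begins with HIST1H, HIST2H, HIST3H or HIST4H, the older names of the genes in the 4 numbered histone gene clusters. This rule found 89 of the 35606 genes listed, with 8 members in class H1, 23 in H2A, 25 in H2B, 17 in H3 and 16 in H4. Of these, 71 are protein coding in GENCODE release 29 and 18 are not. All 89 enter the summed values, while values for single genes are given where the mean was at least 1 CPM over the samples of a table.

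The QGP-1 line, labelled as wild type, was established from a neuroendocrine tumor of the human pancreas. There are 10 RNA-seq samples in 5 groups of 2. In the knockdown experiment, CRISPR interference (CRISPRi), in which a catalytically inactive Cas9 joined to the KRAB repressor is led to the start of a gene, was used with the guide sgPIKFYVE-1 or the control guide sgNC, in cells transduced with lentivirus and selected with puromycin. In the drug experiment, cells received the solvent DMSO, 1 µM of the PIKfyve inhibitor apilimod or 100 nM of the mTOR inhibitor Torin-1, for 24 h according to the labels, whereas the text of the study gives a shorter time. The knockdown rests on a single guide, and nothing in the labels says that replicates came from separate cultures, so p-values measure only the spread between these samples, which may be technical.

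These genes encode the core histones H2A, H2B, H3 and H4, around which DNA is wound in nucleosomes, and the linker histone H1, which binds the DNA between them. Their mRNAs accumulate mainly in S phase, when new DNA has to be packaged, and most end in a stem-loop instead of a poly(A) tail. The stem-loop binding protein SLBP and the U7 snRNP direct the cut behind the stem-loop, and some members also give polyadenylated transcripts that run past it, above all in differentiated or non-dividing cells.

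The stem-loop could be read in the transcript models of 34 members, 32 of them protein coding. A pattern of a 6-base stem, a 4-base loop and the closing stem was searched on the transcript strand, and it was found in 38.2% of the members and in 0.10% of 35423 other listed genes. The genes below are those whose values the results turn on and whose models hold it. Capitals mark the 16 bases of the stem-loop, lower case the 5 bases on either side, and all sequences are from GENCODE release 29 on GRCh38.
HIST1H2AC: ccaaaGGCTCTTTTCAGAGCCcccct
HIST1H2BG: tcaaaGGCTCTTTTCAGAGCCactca
HIST2H2BE: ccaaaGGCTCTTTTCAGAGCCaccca
HIST2H2BF: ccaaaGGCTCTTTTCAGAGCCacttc
HIST2H2AA3: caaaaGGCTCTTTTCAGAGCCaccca
HIST2H2AA4: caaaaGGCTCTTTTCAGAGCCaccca
HIST2H2BD: ccaaaGGCTCTTTTCAGGGCCactta
HIST1H2BD: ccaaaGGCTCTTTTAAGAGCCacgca
HIST2H4A: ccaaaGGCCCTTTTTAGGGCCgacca
HIST2H4B: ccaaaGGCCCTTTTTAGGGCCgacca
HIST1H4J: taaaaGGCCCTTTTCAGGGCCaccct
The H2A and H2B genes with the commonest form, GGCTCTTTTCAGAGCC, share it with 18 members in all, and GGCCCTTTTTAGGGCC of HIST2H4A and HIST2H4B is found in 3. These windows lie at chr6:26124664-26124689 on the forward strand for HIST1H2AC, at chr1:149886183-149886208 on the reverse strand for HIST2H2BE, at chr1:149833027-149833052 on the forward strand for HIST2H4A and at chr1:149860764-149860789 on the reverse strand for HIST2H4B.

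How far the gene models reach past the stem-loop differed between members. In 23 members the longest such model went on for at least 200 bases behind it, in 11 it ended sooner, and in 55 no model held it. In the knockdown table, 17 of the 23 extended members reached 1 CPM, against 8 of the 11 short ones and 5 of the 55 without it, and in the drug table these counts were 20, 8 and 9. The extended members carried 59.6% of the summed signal in the knockdown table and 62.3% in the drug table. The poly(A) signal AATAAA stood in the last 60 bases of a model of 17 of the 23 extended members and in 25.8% of all members, against 44.3% of the other listed genes. Models of 34 members, HIST1H1C and HIST1H2BK among them, end at the stop codon, so reads from a longer 3′ end cannot be counted there. The study's methods describe oligo(dT) selection, which keeps RNA with a poly(A) tail, whereas the labels name removal of rRNA, which keeps both kinds. None of 12 RNAs without a poly(A) tail that were looked for (RN7SK, RMRP, MALAT1 and others) has a row in the tables, so the values do not tell which share of the histone mRNA was captured.

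Promoter sequences were available from RefSeq (GRCh38.p14, 250 bases before to 50 bases after the start) for 66 members. On either strand, TATAAA was found in 66.7% of them, against 11.5% of all 35116 promoters, and CCAAT in 84.8%, against 34.6%. ATTTGCAT, the octamer-like element, was found in 11 of 16 H2A promoters and 14 of 18 H2B promoters, against 1.77% of all promoters. AAACACA was found in all 6 H1 promoters, against 5.64%. CCAAT was found in 3 of 13 H4 promoters. The 3 promoters below belong to HIST1H1C at chr6:26056421-26056720 on the reverse strand, HIST1H2AC at chr6:26123922-26124221 on the forward strand and HIST2H2BE at chr1:149886633-149886932 on the reverse strand, the 3 members that rose both with sgPIKFYVE-1 and with Torin-1. Capitals mark these motifs on either strand.
HIST1H1C: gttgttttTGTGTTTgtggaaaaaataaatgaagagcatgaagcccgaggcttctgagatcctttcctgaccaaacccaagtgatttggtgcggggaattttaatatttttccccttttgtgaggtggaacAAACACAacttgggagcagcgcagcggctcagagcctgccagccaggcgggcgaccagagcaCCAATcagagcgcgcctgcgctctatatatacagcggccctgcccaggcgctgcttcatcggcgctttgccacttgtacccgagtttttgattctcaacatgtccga
HIST1H2AC: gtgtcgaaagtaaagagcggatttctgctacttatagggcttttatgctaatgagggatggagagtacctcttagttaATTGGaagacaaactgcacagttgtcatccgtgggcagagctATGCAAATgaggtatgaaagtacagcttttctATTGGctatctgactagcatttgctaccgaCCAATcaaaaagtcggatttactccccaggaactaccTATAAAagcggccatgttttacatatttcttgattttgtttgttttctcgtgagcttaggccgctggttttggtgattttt
HIST2H2BE: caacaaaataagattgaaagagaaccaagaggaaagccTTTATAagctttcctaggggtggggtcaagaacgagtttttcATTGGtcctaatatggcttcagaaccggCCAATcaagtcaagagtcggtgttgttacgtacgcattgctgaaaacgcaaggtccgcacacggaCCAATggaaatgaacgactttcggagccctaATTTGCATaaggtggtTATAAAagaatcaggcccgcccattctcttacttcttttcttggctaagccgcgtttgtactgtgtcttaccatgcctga
The window of HIST1H1C holds AAACACA on both strands and CCAAT, while those of HIST1H2AC and HIST2H2BE hold TATAAA, the octamer-like element and several CCAAT boxes. A match describes these letters only and names no bound factor.

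The values are a signal on the scale of CPM (read counts divided by the size of the library), to which the authors applied the TMM scaling, separately for knockdown and drug samples. According to the study, reads were first quantified per transcript and then added up to counts per gene. How reads shared by copies were divided is not given in the sources used here. Low values gave estimates of library depth, from 9.28 to 13.5 M reads, so a count of 3 stands for 0.227 to 0.329 CPM, limits that cover counting error only. Log2 fold changes are on log2(CPM + 1), which understates the change of low genes, and adjusted p-values are from limma after Benjamini-Hochberg adjustment across every gene tested in a table. PIKFYVE measured 101 and 97.5 CPM with sgNC and 10.9 and 12.5 CPM with sgPIKFYVE-1, in accord with the labels. The cell type label was checked with 12 neuroendocrine markers (CHGA, SYP, INSM1 and others), all of which were above the minimum in both tables and summed to between 7196 and 11389 CPM. In bulk RNA, fewer cells that express a gene and less RNA per cell cannot be told apart.

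Histone genes were a small part of the signal. Their sum was 0.0264% of the signal with sgNC and 0.0240% with DMSO, and 22 of the 89 members were listed at 0 in every sample of both tables. With a mean of at least 1 CPM, 30 members were tested in the knockdown table and 37 in the drug table, the 30 being among the 37. The member with the highest mean was HIST2H2BD, a transcribed pseudogene of H2B, with 30.3 CPM over the knockdown table and 33.4 CPM over the drug table. It was followed by HIST1H2AC, HIST1H1C, HIST2H4B and HIST1H2BK in the knockdown table and by HIST2H2BE, HIST1H2BK, HIST2H4A and HIST1H1C in the drug table. Under the minimum were 59 members in the knockdown and 52 in the drug experiment. CPM is not corrected for length, so these values order shares of the reads, not expression levels.

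With knockdown of PIKFYVE the summed signal of the histone genes was slightly above that of the control. The sum was 256 and 268 CPM with sgNC and 287 and 286 CPM with sgPIKFYVE-1. Both knockdown samples lay above both controls, by 0.13 on the log2 scale of the group means. Class H1 gave 26.0 and 25.6 CPM with sgNC and 34.2 and 29.8 CPM with sgPIKFYVE-1. Class H2A gave 47.1 and 52.9 CPM against 64.7 and 62.0 CPM. Both classes were higher in every knockdown sample, with log2 differences of 0.31 and 0.34. Class H2B gave 115 and 121 CPM against 121 and 125 CPM, and class H4 gave 62.2 and 64.1 CPM against 59.5 and 63.2 CPM. Those classes, which hold most of the signal, differed by 0.06 and -0.04. Class H2B includes the pseudogene HIST2H2BD, which fell. Without it, the sum over all classes was 222 and 232 CPM with sgNC and 264 and 258 CPM with sgPIKFYVE-1. Class H3 measured 5.66 and 5.16 CPM with sgNC and 7.86 and 6.47 CPM with sgPIKFYVE-1. The 12 neuroendocrine markers summed to 8211 and 8542 CPM with sgNC and to 7196 and 7434 CPM with sgPIKFYVE-1 (2 rose and 4 fell), and their part in the histone values was not tested.

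**Figure D1:**
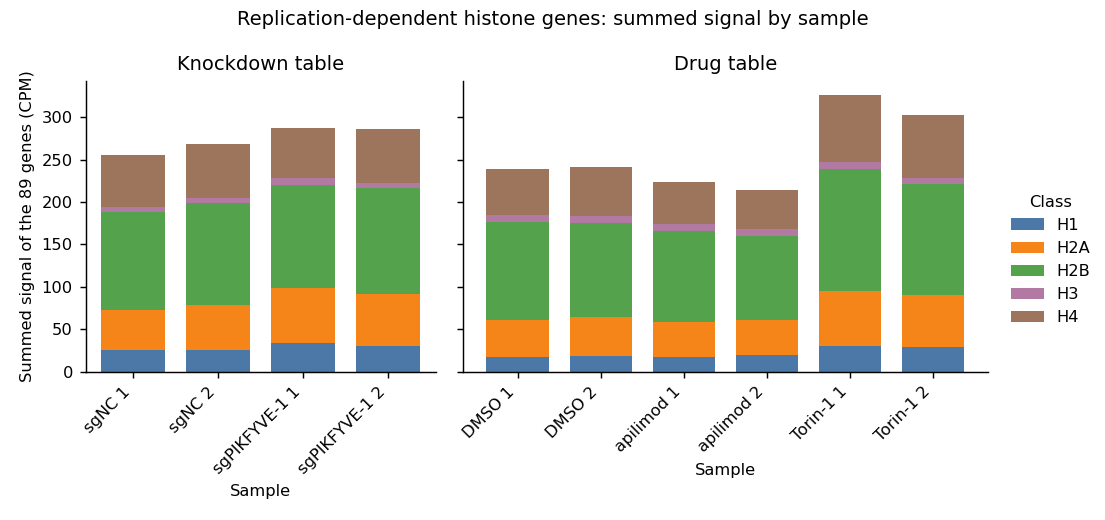
Summed signal of the 89 replication-dependent histone genes in CPM (y axis from 0) in each of the 10 samples, stacked by histone class, for the knockdown table and the drug table, which were normalized separately. The sgPIKFYVE-1 bars reach 287 and 286 CPM against 256 and 268 CPM with sgNC, and the Torin-1 bars reach 326 and 302 CPM against 239 and 242 CPM with DMSO.

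Of the 30 members tested in the knockdown, 4 rose and 2 fell (7 and 1 after quantile normalization), which is 20.0%, against 42.5% of all 13591 genes tested (21.6% higher and 20.9% lower) and 33.3% of the 7971 genes with a mean of at most 40 CPM (14.2% higher and 19.1% lower). The share of histone genes called was thus below that of the background in either count, and that difference was not tested. The mean signal of the members had a median of 3.61 CPM, and neither background was matched to that level. The median log2 fold change was 0.10 over the members and -0.0042 over all genes. In 12 members both knockdown samples lay above both controls and in 3 below, which is 15 of 30, against 70.6% of all genes tested, 35.4% higher and 35.2% lower.

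The linker histone HIST1H1C (ENSG00000187837.3, chr6:26055787-26056428) measured 24.1 and 24.01 CPM with sgNC and 32.4 and 28.6 CPM with sgPIKFYVE-1. The knockdown samples lay above the controls, and the log2 change came to 0.33 (standard error 0.11, adjusted p = 0.0190, limma). HIST1H1E, the other linker histone tested, gave 1.39 and 1.40 CPM against 1.42 and 0.971 CPM, values that overlapped. HIST1H2AC (ENSG00000180573.9, chr6:26124145-26139116), an H2A gene whose models run far past the stem-loop shown above, measured 22.5 and 26.1 CPM with sgNC and 31.3 and 32.1 CPM with sgPIKFYVE-1. It rose by 0.37 (standard error 0.11, adjusted p = 0.00863, limma). HIST2H2BE (ENSG00000184678.10, chr1:149884459-149886652), an H2B gene, measured 16.7 and 18.1 CPM with sgNC and 26.7 and 23.9 CPM with sgPIKFYVE-1. Its groups did not overlap either, and it rose by 0.52 (standard error 0.12, adjusted p = 0.00183, limma). HIST1H2BG, also of H2B, rose from 3.06 and 2.54 CPM to 6.47 and 4.31 CPM, a log2 change of 0.73 (standard error 0.24, adjusted p = 0.0188, limma).

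The members that fell were HIST1H4J and HIST2H2BD. HIST1H4J encodes the same H4 protein as 13 other members and shares its coding sequence with HIST1H4K, which was at 0. HIST1H4J measured 3.80 and 3.93 CPM with sgNC and 2.41 and 1.51 CPM with sgPIKFYVE-1, a log2 change of -0.73 (standard error 0.26, adjusted p = 0.0281, limma). HIST2H2BD measured 33.6 and 35.9 CPM with sgNC and 23.7 and 27.8 CPM with sgPIKFYVE-1. All of its knockdown values lay below the controls, and it fell by 0.42 on the log2 scale (standard error 0.11, adjusted p = 0.00324, limma). HIST2H2BD overlaps, on the opposite strand, the pseudogene that GENCODE names HIST2H2BC and the tables list under the clone name AC239868.1, which measured 33.1 and 27.3 CPM with sgNC and 23.9 and 22.3 CPM with sgPIKFYVE-1. Whether the reads were assigned by strand is not given in the sources used here, so reads of the overlapping part cannot be told apart. Without HIST2H2BD the summed signal differed by 0.20 in place of 0.13.

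Copies with the same coding sequence were uncertain in the knockdown as well. HIST2H2AA3 was listed near 0 and at 5.67 CPM with sgNC and at 9.37 and 0 CPM with sgPIKFYVE-1, and HIST2H2AA4 at 15.8 and 9.87 CPM against 12.7 and 19.6 CPM. The signal went to either copy within a group, whereas their sum was 15.8 and 15.5 CPM with sgNC and 22.0 and 19.6 CPM with sgPIKFYVE-1. The summed values rose by 0.39 (standard error 0.13, adjusted p = 0.0184, limma). HIST2H4A gave 17.3 and 15.1 CPM against 10.2 and 16.1 CPM and HIST2H4B 24.6 and 29.2 CPM against 26.9 and 24.6 CPM, and their summed values differed by -0.15 (standard error 0.090, adjusted p = 0.202, limma). Summed over the 14 members with the same H4 protein, the difference was -0.04 (standard error 0.074, adjusted p = 0.682, limma). HIST2H4A on its own passed without sgPIKFYVE-1 replicate 2 (-0.62, adjusted p = 0.0108, limma).

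The 6 members known to give poly(A) transcripts as well (HIST1H1C, HIST1H2AC, HIST1H2BD, HIST1H2BJ, HIST1H2BK and HIST2H2BE) carried 106 and 115 CPM with sgNC and 138 and 134 CPM with sgPIKFYVE-1. All 6 had positive log2 fold changes and the 3 already named passed the test. The other 83 members gave 149 and 153 CPM with sgNC and 149 and 152 CPM with sgPIKFYVE-1, which overlapped. These 83 include the pseudogene HIST2H2BD, which fell, so the overlap does not describe the rest of the 83, whose sum was not taken. Without HIST2H2BD the sum over all members, the 6 included, differed by 0.20 on the log2 scale. Of the 83, 24 were tested, of which 1 rose and 2 fell, with a median log2 fold change of 0.0036. Among the 6, HIST1H2BD measured 18.6 and 21.9 CPM against 20.3 and 21.5 CPM, HIST1H2BK 21.7 and 23.0 CPM against 24.9 and 24.8 CPM, and HIST1H2BJ 2.69 and 1.92 CPM against 2.74 and 3.24 CPM. None of these 3 passed, with adjusted p-values from limma of 0.805, 0.318 and 0.415.

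**Figure D2:**
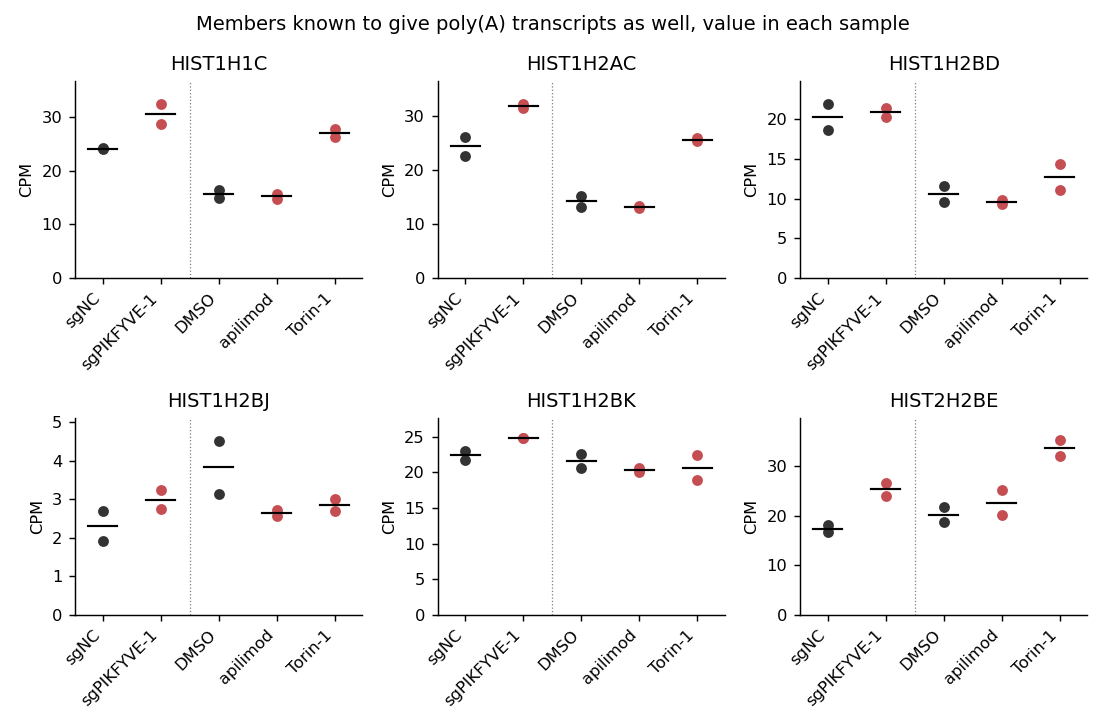
Signal in CPM (y axes from 0) of the 6 members known to give poly(A) transcripts as well, with a point for each sample and a line at the mean of the 2 samples, control groups in black and treated groups in red. The dotted line separates the knockdown table from the drug table, which were normalized separately. HIST1H1C, HIST1H2AC and HIST2H2BE lie above their controls with sgPIKFYVE-1 and with Torin-1.

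Other members with large differences did not pass in the reported fit. HIST1H4B, HIST1H4C and HIST1H3H passed after quantile normalization, and HIST1H4B and HIST3H2BB with no variance trend. HIST1H4B measured 1.11 and 0.873 CPM against 2.30 and 2.05 CPM (log2 fold change 0.67, standard error 0.29, adjusted p = 0.0717, limma). HIST1H4C measured 1.21 and 1.31 CPM against 1.86 and 3.34 CPM (adjusted p = 0.0873, limma), and HIST1H3H 2.50 and 1.75 CPM against 3.18 and 3.88 CPM (adjusted p = 0.0997, limma). Each of these H3 and H4 genes was higher in both knockdown samples than in both controls. HIST3H2A and HIST3H2BB, an H2A and an H2B gene that start 234 bases apart on opposite strands, differed in sign. HIST3H2A gave 1.62 and 2.10 CPM against 3.01 and 2.70 CPM, and HIST3H2BB 1.87 and 2.37 CPM against 0.776 and 1.19 CPM, with adjusted p-values from limma of 0.201 and 0.0850.

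Lists of genes that act on histones or on the cell cycle are read here against the 21.6% of all genes that rose and the 20.9% that fell in the knockdown. Of 36 genes of S phase (such as MCM2, a subunit of the replicative helicase that is also in the list of histone chaperones), 31 rose, all 36 had positive log2 fold changes, and the median was 0.65. MCM2 rose from 34.6 and 36.1 CPM to 80.2 and 70.4 CPM (log2 fold change 1.07, standard error 0.084, adjusted p = 5.91e-09, limma). All 20 genes of mitosis rose, with a median of 0.59. The S phase genes summed to 1287 and 1311 CPM with sgNC and to 2008 and 2042 CPM with sgPIKFYVE-1. The mitosis genes summed to 1272 and 1294 CPM against 1890 and 1933 CPM. With DMSO, in the separately normalized drug table, these sums were 4636 and 4689 CPM and 6329 and 6334 CPM. The difference between the control groups was not tested. The study reported that PIKFYVE knockdown reduced the growth of neuroendocrine tumor cells. Of 23 histone chaperones and histone acetyltransferases of new histones, 14 rose while 1 fell, with a median of 0.28. CHAF1A, a subunit of the chromatin assembly factor that deposits H3 and H4 on new DNA, rose by 0.73 (adjusted p = 1.93e-06, limma). Of 26 genes for the transcription, processing and decay of histone mRNA, 6 rose and 3 fell. SLBP measured 34.9 and 32.6 CPM with sgNC and 44.1 and 46.0 CPM with sgPIKFYVE-1, a rise of 0.41 (standard error 0.090, adjusted p = 0.00115, limma), SNRPG, an Sm protein of snRNPs, rose by 0.35 and TUT4, which adds uridines to histone mRNA in decay, fell by 0.31 on the log2 scale. NPAT, which activates histone gene transcription, measured 48.6 and 50.9 CPM against 45.1 and 52.3 CPM, and its groups overlapped.

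The replication-independent histone genes divided. Of 11 tested, 5 rose and 5 fell with sgPIKFYVE-1, with a median of -0.07. H2AFZ, the gene of the variant H2A.Z, rose from 203 and 203 CPM to 289 and 297 CPM (log2 fold change 0.53, standard error 0.048, adjusted p = 4.7e-08, limma). H1F0, the linker histone of non-dividing cells, fell from 282 and 288 CPM to 185 and 180.5 CPM (log2 fold change -0.64, standard error 0.049, adjusted p = 3.93e-09, limma). All 13 mitochondrial mRNAs also rose in the knockdown, from sums of 68258 and 68824 CPM to 85832 and 85188 CPM, and the part of this shift in the CPM of other genes was not tested.

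Calls in the knockdown rested on few samples. HIST2H2BE and HIST2H2BD passed with any sample left out, HIST1H2AC failed without sgNC replicate 1 (0.27, adjusted p = 0.138), HIST1H2BG without sgNC replicate 2 (0.63) or sgPIKFYVE-1 replicate 1 (0.49), HIST1H1C without sgNC replicate 1 (0.33), sgNC replicate 2 (0.32) or sgPIKFYVE-1 replicate 1 (0.24), and HIST1H4J without sgNC replicate 1 (-0.75), sgNC replicate 2 (-0.71) or sgPIKFYVE-1 replicate 2 (-0.51), all by limma. With no variance trend HIST2H2BD (adjusted p = 0.0502), HIST1H2AC (0.0547), HIST1H2BG (0.0556) and HIST1H1C (0.0616) failed, and with no filter HIST1H2AC (0.0524), HIST1H1C (0.0651), HIST1H4J (0.0992) and HIST1H2BG (0.111), by limma. After quantile normalization HIST1H4J failed as well (-0.58, adjusted p = 0.0823, limma).

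Apilimod, which inhibits the kinase activity of PIKfyve, was compared with DMSO. The summed signal was 239 and 242 CPM with DMSO and 223 and 215 CPM with apilimod, so that both treated samples lay below both controls, by 0.14 on the log2 scale of the means. The larger classes were lower in every apilimod sample. By cluster, the sum of the HIST1 members differed by -0.06 and that of the HIST2 members, with HIST2H2BD, HIST2H4A and HIST2H4B among them, by -0.23. H2A gave 43.0 and 45.8 CPM with DMSO and 40.8 and 40.5 CPM with apilimod, H2B 117 and 111 CPM against 107 and 99.4 CPM, and H4 54.2 and 58.2 CPM against 49.2 and 46.0 CPM. H1 overlapped, at 17.4 and 18.5 CPM against 17.3 and 19.9 CPM, and H3 was slightly higher, at 8.27 and 8.06 CPM against 8.34 and 8.85 CPM. The neuroendocrine markers summed to 8596 and 8612 CPM with DMSO and to 7551 and 7427 CPM with apilimod (1 rose and 4 fell), and their part in these values was not tested.

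Of the 37 members tested, 1 rose and 2 fell with apilimod, which is 8.11%, against 8.54% of 13520 genes (5.75% higher and 2.79% lower) and 5.47% of the 7805 genes with a mean of at most 40 CPM (4% higher and 1.47% lower). The share called was near the background, which was not matched to the level of the members (median of their means 3.03 CPM). The median log2 fold change was -0.06 over the members and -0.01 over all genes. Treated and control samples did not overlap in 14 members, 4 higher and 10 lower, against 50.7% of all genes, 24.8% higher and 25.9% lower. Over all genes 67.4% of the calls with apilimod were higher, and 55.1% after quantile normalization.

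The 3 calls fell on the HIST2 cluster of chromosome 1. HIST2H4A (ENSG00000270882.2) measured 22.2 and 25.2 CPM with DMSO and 10.4 and 9.93 CPM with apilimod, and fell by 1.15 on the log2 scale (standard error 0.12, adjusted p = 1.68e-05, limma). HIST2H4B (ENSG00000270276.2) measured 12.1 and 11.6 CPM with DMSO and 17.9 and 15.3 CPM with apilimod, a log2 change of 0.45 (standard error 0.13, adjusted p = 0.0385, limma). These are copies with the same coding sequence and the same 26 bases around the stem-loop, so the split of reads between them is uncertain. Their sum was 34.3 and 36.8 CPM with DMSO and 28.3 and 25.2 CPM with apilimod, and the summed values fell by 0.40 (standard error 0.094, adjusted p = 0.0157, limma). Summed over the 14 members with the same H4 protein, the difference was -0.235 and did not pass (standard error 0.080, adjusted p = 0.0964, limma). HIST2H2BD measured 35.3 and 34.0 CPM with DMSO and 29.2 and 25.2 CPM with apilimod and fell by 0.34 (standard error 0.10, adjusted p = 0.0472, limma), while its antisense neighbour AC239868.1 measured 22.8 and 21.3 CPM against 19.0 and 19.0 CPM.

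**Figure D3:**
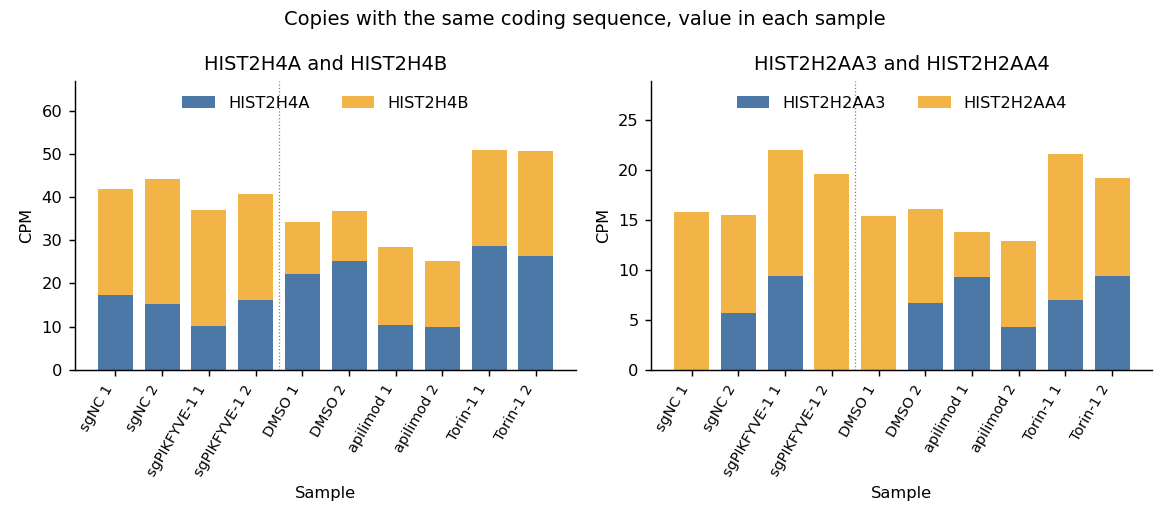
Signal in CPM (y axes from 0) of HIST2H4A and HIST2H4B (left) and of HIST2H2AA3 and HIST2H2AA4 (right) in each sample, stacked, with the knockdown table left and the drug table right of the dotted line. HIST2H4A is the larger part with DMSO and the smaller part with apilimod, and HIST2H2AA3 is listed near 0 in sgNC replicate 1, sgPIKFYVE-1 replicate 2 and DMSO replicate 1.

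HIST2H2AA3 and HIST2H2AA4, H2A copies with the same coding sequence, had the largest differences among members not called. HIST2H2AA3 was listed near 0 in DMSO replicate 1 and at 6.67 CPM in DMSO replicate 2, and at 9.29 and 4.28 CPM with apilimod. HIST2H2AA4 measured 15.4 and 9.40 CPM with DMSO and 4.46 and 8.65 CPM with apilimod. Replicates of 1 group thus differed in which copy received the signal, while the sum of the copies was 15.4 and 16.1 CPM with DMSO and 13.8 and 12.9 CPM with apilimod. The summed values differed by -0.22 (standard error 0.12, adjusted p = 0.330, limma). HIST2H3A and HIST2H3C, H3 copies with the same coding sequence, had identical values in every sample, 0.860 and 1.12 CPM with DMSO. Both are among the tested members, so the same values enter the counts, shares and medians with apilimod and with Torin-1 more than once.

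The 6 members with known poly(A) transcripts gave 85.5 and 86.6 CPM with DMSO and 85.4 and 81.6 CPM with apilimod, and none of them passed. At an unadjusted p under 0.05 in limma, 2 of all 37 members were higher and 4 lower with apilimod. HIST1H1C measured 14.8 and 16.4 CPM against 14.7 and 15.7 CPM, HIST1H2AC 13.2 and 15.1 CPM against 13.001 and 13.2 CPM, and HIST2H2BE 18.7 and 21.7 CPM against 25.2 and 20.2 CPM. All 3 overlapped with their controls, whereas they rose with sgPIKFYVE-1 in the other table. The difference between the knockdown and apilimod was not tested, since the tables were normalized separately. The other 83 members gave 154 and 155 CPM with DMSO and 138 and 133 CPM with apilimod, both treated samples being lower.

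Further members at the ends of the range did not pass. HIST1H2BG gave 3.80 and 2.99 CPM with DMSO and 1.46 and 2.95 CPM with apilimod, HIST1H2BN 6.79 and 7.29 CPM against 4.66 and 5.30 CPM, and HIST2H2AC 1.27 and 1.27 CPM against 0.510 and 0.907 CPM. All 3 were lower in both treated samples, with adjusted p-values from limma of 0.278, 0.182 and 0.427. HIST1H1B gave 1.36 and 0.498 CPM against 1.55 and 1.74 CPM, and HIST1H4J 1.54 and 2.74 CPM against 3.20 and 2.57 CPM, with adjusted p-values of 0.374 and 0.514. HIST1H4J had fallen in the knockdown.

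The same lists are read here against the 5.75% of all genes that rose and the 2.79% that fell with apilimod. Of 26 genes of histone mRNA processing 1 fell, CSTF2T, a cleavage stimulation factor subunit, at 82.6 and 86.5 CPM with DMSO and 69.5 and 71.1 CPM with apilimod (log2 fold change -0.26, standard error 0.075, adjusted p = 0.0436, limma). Of 23 histone chaperones and related genes, NASP, a chaperone of H1 and of H3 with H4, fell by 0.28 on the log2 scale (adjusted p = 0.00126, limma) and SUPT6H, which restores nucleosomes behind the polymerase, rose by 0.25 (adjusted p = 0.0181, limma). Of 11 replication-independent histone genes tested, 0 passed in limma, and at an unadjusted p under 0.05, 3 were lower. Of the S phase genes 3 of 36 fell, and of the mitosis genes 9 of 20 fell, with medians of -0.04 and -0.20. CSTF2T failed without DMSO replicate 1 (-0.30), DMSO replicate 2 (-0.23), apilimod replicate 1 (-0.25) or apilimod replicate 2 (-0.28), with no filter and with no variance trend, and SUPT6H failed without DMSO replicate 2 (0.19) or apilimod replicate 1 (0.20), after quantile normalization, with no filter and with no variance trend. NASP failed with no variance trend (adjusted p = 0.108, limma). SLBP and NPAT did not pass, at 55.0 and 57.7 CPM against 58.4 and 58.8 CPM for SLBP and 57.3 and 61.2 CPM against 45.5 and 57.8 CPM for NPAT, which passed without apilimod replicate 2 (-0.37, adjusted p = 0.0302, limma).

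The fall of HIST2H4A passed with any sample left out. HIST2H4B failed without DMSO replicate 1 (0.48), DMSO replicate 2 (0.43) or apilimod replicate 1 (0.35), and HIST2H2BD without DMSO replicate 1 (-0.31), DMSO replicate 2 (-0.37) or apilimod replicate 2 (-0.24), while HIST2H2AA4 passed without DMSO replicate 2 (-1.18), apilimod replicate 2 (-1.26) or either Torin-1 sample, all by limma. HIST2H4B and HIST2H2BD also failed with no filter and with no variance trend, and HIST2H2BD with only the compared groups in the fit.

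Torin-1, an inhibitor of the kinase mTOR, was compared with the same DMSO samples, so its values and those of apilimod share their controls. The summed signal was 239 and 242 CPM with DMSO and 326 and 302 CPM with Torin-1, both treated samples being higher, by 0.38 on the log2 scale of the means. H1 had the highest ratio among the class sums, 1.66, with 17.4 and 18.5 CPM against 30.1 and 29.5 CPM. H2A gave 43.0 and 45.8 CPM against 64.6 and 60.6 CPM, H2B 117 and 111 CPM against 144 and 131 CPM, and H4 54.2 and 58.2 CPM against 79.7 and 73.3 CPM, with ratios of 1.41, 1.21 and 1.36. H3 was the class whose sum was lower, at 8.27 and 8.06 CPM against 7.83 and 7.36 CPM. The median log2 fold change of its 5 tested members, 0.25, was the value of HIST2H3A and HIST2H3C, copies with identical values in every sample. That value is counted for each copy, so the median does not show that most of the class rose. The 12 neuroendocrine markers summed to 11041 and 11389 CPM with Torin-1 and to 8596 and 8612 CPM with DMSO (6 rose and 2 fell), and their part in the histone values was not tested.

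Of the 37 members tested, 6 rose with Torin-1, which is 16.2%, and 0 fell in limma, with 1 lower at an unadjusted p under 0.05. Over all 13520 genes 38.5% passed, 16.6% higher and 21.8% lower, and among the 7805 genes with a mean of at most 40 CPM 28.1% passed, 14.7% higher and 13.4% lower. The share of histone genes that rose was thus near the background of that direction, which was again not matched to their level. The median log2 fold change was 0.24 over the members and -0.01 over all genes, and 29 of 37 members had positive values. Both treated samples were above both controls in 20 members and below them in 2, while 69.3% of all genes did not overlap, 32.7% higher and 36.6% lower.

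**Figure D4:**
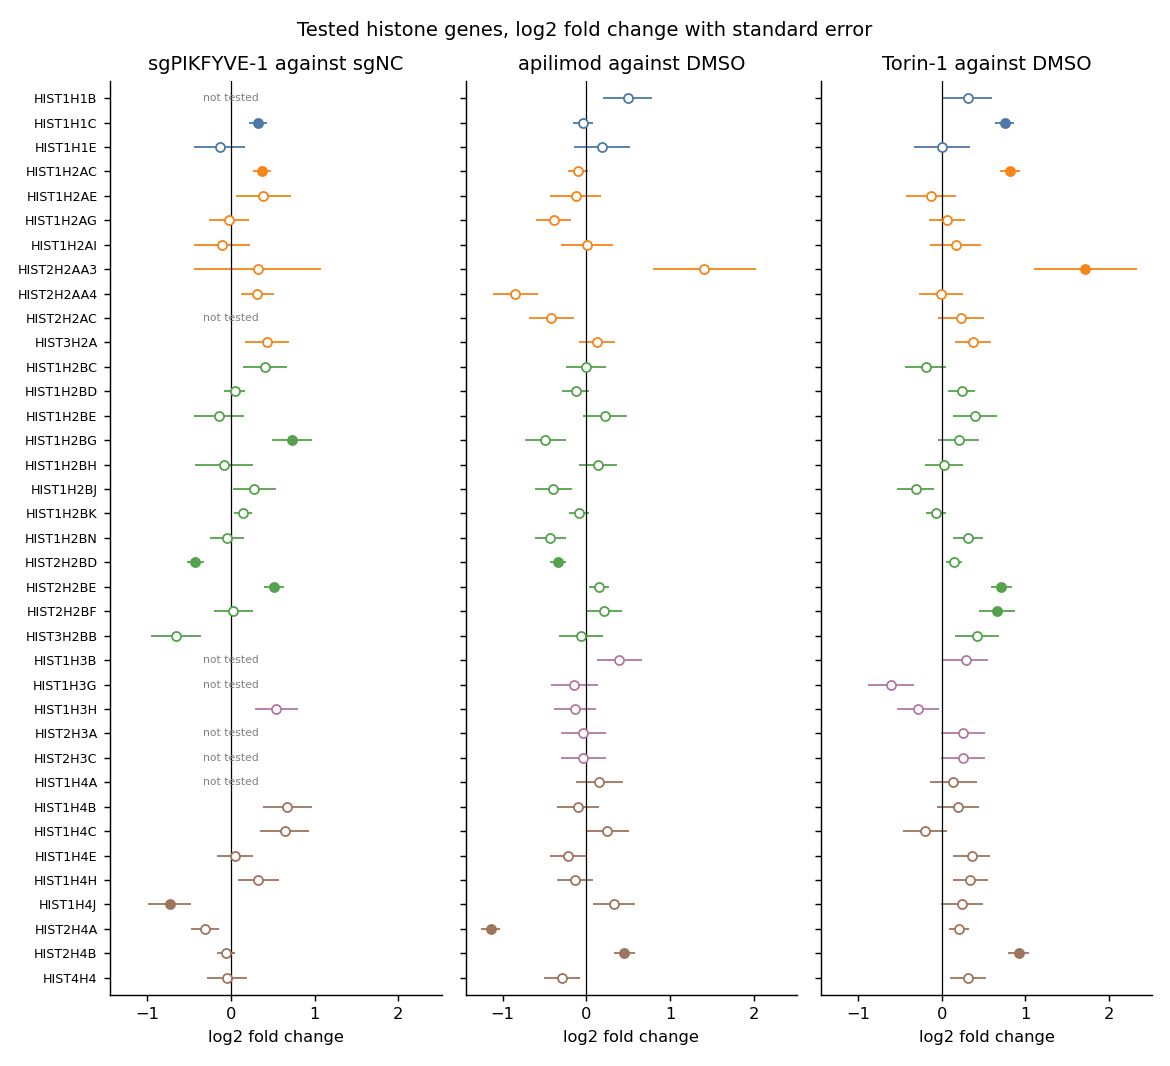
Log2 fold change of every tested member on log2(CPM + 1) with its standard error (horizontal bars), grouped by class from H1 (top) to H4 (bottom), in the 3 comparisons. Filled points passed limma at an adjusted p under 0.05, open points did not, and members under the minimum in the knockdown table are marked as not tested.

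HIST1H1C measured 14.8 and 16.4 CPM with DMSO and 26.2 and 27.8 CPM with Torin-1, a log2 change of 0.75 (standard error 0.12, adjusted p = 0.000206, limma). HIST1H1B gave 1.36 and 0.498 CPM against 1.68 and 1.03 CPM and HIST1H1E 1.18 and 1.49 CPM against 2.24 and 0.690 CPM, which overlapped, so that most of the class difference was in HIST1H1C. HIST1H2AC measured 13.2 and 15.1 CPM with DMSO and 25.2 and 26.0 CPM with Torin-1 and rose by 0.81 (standard error 0.12, adjusted p = 0.000139, limma). HIST1H2BC, the H2B gene that starts 219 bases from HIST1H2AC on the opposite strand, measured 2.26 and 3.40 CPM against 1.86 and 2.85 CPM and did not pass (adjusted p = 0.572, limma).

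HIST2H2BE measured 18.7 and 21.7 CPM with DMSO and 35.3 and 32.1 CPM with Torin-1, a log2 change of 0.71 (standard error 0.12, adjusted p = 0.000513, limma). Its divergent partner HIST2H2AC, 323 bases away, gave 1.27 and 1.27 CPM against 1.97 and 1.39 CPM and did not pass (adjusted p = 0.534, limma). The differences within these pairs were not tested. HIST2H2BF, an H2B gene of the same cluster, rose from 3.62 and 2.49 CPM to 5.88 and 4.86 CPM (log2 fold change 0.66, standard error 0.21, adjusted p = 0.0244, limma). HIST2H2BF overlaps FCGR1A on the opposite strand.

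The remaining calls were copies. HIST2H4B measured 12.1 and 11.6 CPM with DMSO and 22.3 and 24.3 CPM with Torin-1, a log2 change of 0.92 (standard error 0.13, adjusted p = 6.95e-05, limma), and HIST2H4A 22.2 and 25.2 CPM against 28.7 and 26.3 CPM, which did not pass (adjusted p = 0.191, limma). Their sum was 34.3 and 36.8 CPM with DMSO and 51.0 and 50.6 CPM with Torin-1, and the summed values rose by 0.50 (standard error 0.094, adjusted p = 0.000795, limma). HIST2H2AA3 was near 0 and at 6.67 CPM with DMSO and at 7.003 and 9.37 CPM with Torin-1, a log2 change of 1.72 (standard error 0.62, adjusted p = 0.0420, limma). Without DMSO replicate 1, the sample near 0, it was 0.25. Its sum with HIST2H2AA4 was 15.4 and 16.1 CPM against 21.6 and 19.2 CPM, a rise of 0.35 (standard error 0.12, adjusted p = 0.0350, limma). Summed over the 14 members with the same H4 protein, H4 rose by 0.44 (standard error 0.080, adjusted p = 0.000751, limma), whereas the 10 members with the same H3 protein differed by -0.27 (standard error 0.18, adjusted p = 0.238, limma).

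The 6 members with known poly(A) transcripts gave 85.5 and 86.6 CPM with DMSO and 126 and 119 CPM with Torin-1, a log2 difference of 0.51, and the other 83 members 154 and 155 CPM against 200.1 and 183 CPM, a difference of 0.31. Of the 6, HIST1H1C, HIST1H2AC and HIST2H2BE rose. HIST1H2BD measured 11.6 and 9.54 CPM against 14.3 and 11.04 CPM, HIST1H2BK 22.6 and 20.6 CPM against 22.4 and 18.9 CPM, and HIST1H2BJ 4.53 and 3.15 CPM against 2.70 and 3.02 CPM. HIST1H2BJ was lower in both treated samples and the other 2 overlapped with DMSO, and their adjusted p-values from limma were 0.261, 0.695 and 0.287.

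HIST2H2BD measured 35.3 and 34.0 CPM with DMSO and 37.98 and 38.7 CPM with Torin-1 (log2 fold change 0.14, standard error 0.10, adjusted p = 0.272, limma), and its antisense neighbour AC239868.1 rose from 22.8 and 21.3 CPM to 32.5 and 34.0 CPM (adjusted p = 0.000661, limma). At the low end, HIST1H3G gave 1.36 and 1.84 CPM against 0.562 and 0.862 CPM (log2 fold change -0.60, standard error 0.28, adjusted p = 0.101, limma) and HIST1H3H 2.53 and 1.66 CPM against 1.77 and 1.29 CPM (adjusted p = 0.410, limma). HIST1H3B, which encodes the same H3 protein, gave 0.905 and 0.581 CPM against 1.12 and 1.12 CPM (adjusted p = 0.431, limma). HIST1H3G fell with no variance trend (adjusted p = 0.0479, limma), so that 5 members were higher and 1 lower there.

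Lists of genes that act on histones or on the cell cycle are read here against the 16.6% of all genes that rose and the 21.8% that fell with Torin-1, where more genes fell than rose over the whole table as well. Of the S phase genes 17 of 36 fell and 4 rose, with a median of -0.17, and of the mitosis genes 15 of 20 fell, with a median of -0.29. Of 26 genes of histone mRNA processing 13 fell and 4 rose. SNRPB, an Sm protein, fell from 310 and 294 CPM to 195 and 194 CPM (log2 fold change -0.63, standard error 0.050, adjusted p = 4.55e-07, limma), and SNRPG fell by 0.57 on the log2 scale. NPAT rose from 57.3 and 61.2 CPM to 72.3 and 73.3 CPM (log2 fold change 0.29, standard error 0.098, adjusted p = 0.0302, limma), and SLBP gave 55.0 and 57.7 CPM against 55.5 and 62.6 CPM and did not pass (adjusted p = 0.571, limma). Of 23 histone chaperones and related genes 8 fell and 1 rose. HAT1, which acetylates new H4, fell by 0.54 (adjusted p = 4.23e-05, limma) and SSRP1, a subunit of the chaperone FACT, by 0.38 (adjusted p = 5.69e-05, limma).

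Of the 11 replication-independent histone genes tested, 2 rose and 3 fell with Torin-1, with a median of -0.06. H2AFZ fell from 458 and 460.1 CPM to 259 and 290.4 CPM (log2 fold change -0.74, standard error 0.054, adjusted p = 2.08e-07, limma), and H2AFX, the gene of the variant H2A.X, fell from 116 and 110.4 CPM to 76.0 and 74.0 CPM (log2 fold change -0.59, standard error 0.066, adjusted p = 1.27e-05, limma). H2AFZ rose in the knockdown and fell with Torin-1, whereas HIST1H1C, HIST1H2AC and HIST2H2BE rose in both.

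**Figure D5:**
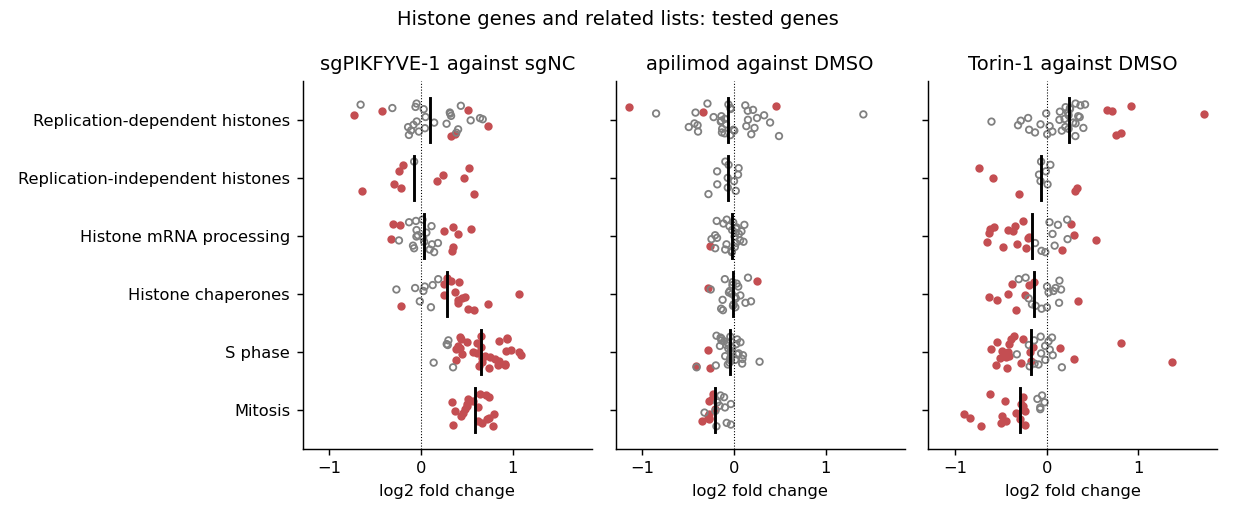
Log2 fold change on log2(CPM + 1) of each tested gene (points, spread vertically only to separate them) in the replication-dependent histone genes and 5 related lists, in the 3 comparisons. Filled red points passed limma, open points did not, and the black bar is the median of the list. In the knockdown the median is 0.10 for the histone genes and 0.65 for the S phase genes, and with Torin-1 it is 0.24 and -0.17.

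HIST1H1C, HIST1H2AC, HIST2H2BE and HIST2H4B passed with Torin-1 whichever sample was left out. HIST2H2BF failed without DMSO replicate 2 (0.46) or Torin-1 replicate 1 (0.55), and HIST2H2AA3 without DMSO replicate 1 (0.25, adjusted p = 0.592), Torin-1 replicate 1 (1.91) or Torin-1 replicate 2 (1.53), all by limma. Both also failed with no filter, and HIST2H2AA3 after quantile normalization and with no variance trend. NPAT failed with any DMSO or Torin-1 sample left out, with adjusted p-values between 0.0577 and 0.164, with no filter and with no variance trend.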

How the data were processed

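The RNA-seq data comprise 10 samples, 2 per group. The authors deposited 1 table for the knockdown and 1 for the drugs, with a signal per gene on the scale of CPM that they scaled with TMM. The submitters' processing notes name bcl2fastq 2.20, FastQC, Trimmomatic, edgeR and DESeq2 and the build hg38. Whether counting used strand is not given in the sources used here. The design had assumed plain CPM, but column sums show further scaling, so the values were treated as a scaled signal and no count test was run. Depth was estimated from low values, of which between 71.5% and 74.7% were whole reads within 0.02, too few to recover counts.

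Of all genes, 13591 in the knockdown and 13520 in the drug table had a mean of 1 CPM or more. Their log2(CPM + 1) entered limma 3.58.1 (R 4.3.3) with a variance trend and Benjamini-Hochberg adjustment at 0.05, in a fit of 4 samples for the knockdown and of 6 for the drugs. Sums over all members, classes and lists, and medians, are given as descriptions with no test, because the members were chosen with results known. Copies and members with the same protein were summed before the fit and tested in it. The code was tested on simulated data. Gene models were from GENCODE and promoters from RefSeq, with Python 3.11.15, pandas 2.3.3, Biopython 1.88 and matplotlib 3.10.9.

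The members and gene lists were chosen with earlier results of these data known. Members named are every H1 gene, the 6 with known poly(A) transcripts, the 5 with the highest mean, and the 6 highest and 6 lowest log2 fold changes per comparison. Outside the members they are PIKFYVE, SLBP, NPAT and, from 3 related lists, the 2 genes with the smallest p among those that passed. AC239868.1 was added after its values were seen, as the overlapping neighbour of HIST2H2BD. Alternatives were the pseudocount, the filter, quantile normalization, the replicate block, the variance trend, the groups in the fit, sums over copies and leaving out each sample. Sums over the same coding sequence, protein coding members alone and the sum without the 6 were added after seeing the data.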

Additional observations from a re-analysis of the deposited data

How the results depend on the processing

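With 2 samples a group and a median standard error of 0.24 for members in the knockdown, small changes could not be detected. The replicate numbers were not shown to pair the samples, with correlations of deviations between 0.037 and 0.104. With the replicate block the members called stayed 6, 3 and 6 for the knockdown, apilimod and Torin-1, while calls over all genes with apilimod went from 1155 to 1756. The summed signal in the knockdown (0.13) was 0.20 without the member with the highest mean, 0.19 after quantile normalization, -0.0084 without the 6 members with poly(A) transcripts, and between 0.10 and 0.16 with a sample left out. With apilimod (-0.14) it was -0.10 and -0.19 without those members, and between -0.16 and -0.11 with a sample left out. With Torin-1 (0.38) it was 0.31 without the 6, and between 0.33 and 0.44 with a sample left out. Members called in the knockdown (4 higher and 2 lower) were 2 with no filter, where more genes are tested, 8 after quantile normalization (7 higher and 1 lower), 4 with no variance trend (2 higher and 2 lower) and between 4 and 7 with a sample left out. With apilimod 1 was called with no filter, with no variance trend or with members of the same protein summed, and between 1 (without DMSO replicate 1) and 4 with a sample left out, and with Torin-1 between 4 and 6, with 5 higher and 1 lower with no variance trend. The median of members in the knockdown was 0.10 with a pseudocount of 0.1, 0.0435 with no filter, 0.18 after quantile normalization and between 0.11 and 0.14 with a sample left out. With apilimod it was -0.0049 with no filter and between -0.11 and 0.0070 (without DMSO replicate 2) with a sample left out, and with Torin-1 between 0.12 and 0.38. Genes that did not pass in the reported fit changed sign as follows, with the range over the samples left out. In the knockdown these were HIST1H1E (-0.281 to 0.0184, and 0.049 after quantile normalization), HIST1H2BD (-0.0679 to 0.155), HIST2H4B (-0.177 to 0.0587), HIST1H2BE (-0.4835 to 0.2035) and NPAT (-0.14 to 0.0713). With apilimod they were HIST2H2AA3 (-0.0573 without DMSO replicate 1 to 2.88 without DMSO replicate 2), HIST1H2BD (-0.255 to 0.0010), HIST1H1C (-0.107 to 0.0299) and HIST1H1E (-0.172 to 0.5535). With Torin-1 they were HIST1H1E (-0.463 to 0.474, with -0.0702 at a pseudocount of 0.1 and -0.0986 after quantile normalization), HIST1H2BC (-0.407 to 0.0243), HIST1H2AE (-0.467 to 0.213), HIST1H1B (-0.0147 to 0.640), HIST1H4C (-0.564 to 0.159), HIST1H2BK (-0.186 to 0.0521) and SLBP (-0.0213 to 0.149). The cause of these shifts was not tested.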
